A study of Mus musculus with 10 samples.

Results

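The 10 genes described here mark the dendritic cells of skin and the Langerhans cells of its epidermis, and all 10 were among the 17016 genes listed for whole skin of imiquimod-treated mice. They were taken by symbol: Cd207 and Epcam for Langerhans cells, Xcr1 and Clec9a for type 1 conventional dendritic cells (cDC1), Cd209a for type 2 (cDC2), Itgax, Flt3 and Zbtb46 for the lineage as a whole, and Ccr7 and Ly75 for migration and antigen uptake. The quinpirole group was 5 skin samples of BALB/c mice, all females of 10 to 11 weeks, whose shaved backs received 5% imiquimod cream daily for 5 days while quinpirole, which activates the dopamine receptor DRD2, was given 5 times by injection into the peritoneum. The vehicle group was 5 samples from mice of the same strain, sex and age, with the same cream and vehicle in place of quinpirole. Both groups thus carry the imiquimod model of psoriasis, and skin without the cream was not analysed here. The labels do not say that each sample is a separate animal, so the p-values may cover technical spread only.

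Dendritic cells take up antigen in the skin, migrate through lymph vessels to the lymph node and present the antigen to T cells. Langerhans cells are their epidermal counterpart: they arise from embryonic precursors, depend on the cytokine IL-34 and on TGF-β, and carry langerin (CD207) and the adhesion protein EpCAM. Imiquimod, which activates the receptor TLR7, is known to activate dendritic cells in mouse skin. In whole skin, fewer cells of a type and less RNA per cell cannot be told apart.

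None of the 10 genes differed between quinpirole and vehicle by the test used, and for all 10 the groups overlapped. All 10 passed the filter on low values (at least 1 CPM, a count scaled to library size by the authors' normalisation, in at least 5 libraries). Limma called 0 of the 10 at an adjusted p under 0.05, where it called 0.0206% of all 14548 genes tested (3 genes), and 0 of the 10 had an unadjusted p under 0.05, where 11.4% of all genes did. On the recovered reads, edgeR and DESeq2 also called 0, with 1 of the 10, Flt3, at an unadjusted p under 0.05 in each. Non-overlapping groups were seen for 2.2% of all genes tested and for 0 of the 10. Of the 10, 6 had higher and 4 lower values with quinpirole, with a median log2 fold change of 0.16 beside -0.0021 over all genes tested. Fold changes were taken after adding 1 CPM to each value, on a log2 scale, so those of genes with low levels come out too small. The intervals of the 10 fold changes are wide and all include 0, so changes of the size they span are neither shown nor excluded.

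The libraries held between 6763367 and 8361877 reads assigned to genes, so that 1 read was worth 0.119 to 0.146 CPM. Several of these genes therefore rest on few reads: Ccr7 had 4 to 21 reads per library, Clec9a 6 to 23 and Xcr1 8 to 25, while Cd207 had 87 to 203 and Epcam 1466 to 2465. The libraries also differed in content across both groups. The mean log2 level of 27 hair shaft genes was 0.59 and 0.53 in quinpirole replicates 2 and 4 and 0.44 in vehicle replicate 5, against 3.08 to 6.78 in the other 7 libraries, and the summed level of 20 skeletal muscle genes was 3573 to 17243 CPM with quinpirole and 1661 to 6511 CPM with vehicle. Ptprc, the gene of the pan-leukocyte antigen CD45, averaged 115 ± 28.6 CPM with quinpirole and 117 ± 38.5 CPM with vehicle (SD, n = 5 each), with a log2 fold change of 0.0093 by limma (adjusted p = 0.994) that was negative under 9 alternatives.

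**Figure D1:**
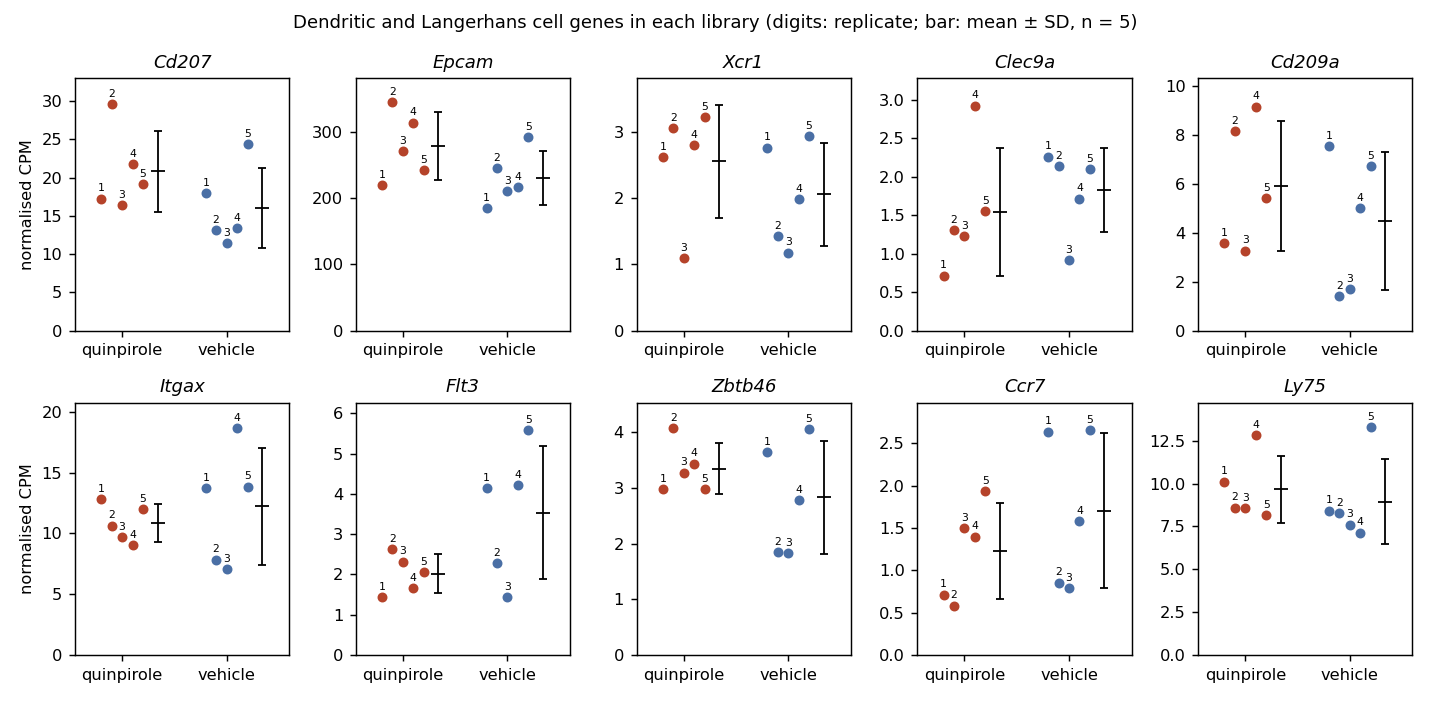
Normalised CPM of each of the 10 genes (vertical axis, from 0) in each quinpirole and vehicle library, with the replicate number beside each point and the mean ± SD at the side. In every panel the 5 quinpirole and 5 vehicle libraries overlap, and the 5 quinpirole values of Flt3, 1.43 to 2.62 CPM, span less than the 5 vehicle values, 1.44 to 5.59 CPM.

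Promoter sequence is shown for Cd207, the gene that defines Langerhans cells here, and for Zbtb46, the gene among the other 9 whose level followed it most closely over the 10 libraries. Both are RefSeq promoters on GRCm38.p6, the assembly of mm10, running 5′ to 3′ along the gene's strand from 250 bases before to 50 bases after the RefSeq start. Cd207 is at chr6:83677808-83678107 on the minus strand and Zbtb46 at chr2:181424339-181424638 on the minus strand. Capitals mark matches to 3 motifs searched on both strands: GAGGAA, the core bound by the myeloid factor PU.1, TGTGGT, bound by RUNX factors, and TGANTCA, bound by AP-1.
Cd207: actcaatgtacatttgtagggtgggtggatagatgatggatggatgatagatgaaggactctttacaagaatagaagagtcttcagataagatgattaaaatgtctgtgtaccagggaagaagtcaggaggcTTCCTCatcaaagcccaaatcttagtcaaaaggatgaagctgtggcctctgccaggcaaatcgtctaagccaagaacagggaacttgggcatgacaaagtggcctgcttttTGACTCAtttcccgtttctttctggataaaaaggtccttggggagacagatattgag
Zbtb46: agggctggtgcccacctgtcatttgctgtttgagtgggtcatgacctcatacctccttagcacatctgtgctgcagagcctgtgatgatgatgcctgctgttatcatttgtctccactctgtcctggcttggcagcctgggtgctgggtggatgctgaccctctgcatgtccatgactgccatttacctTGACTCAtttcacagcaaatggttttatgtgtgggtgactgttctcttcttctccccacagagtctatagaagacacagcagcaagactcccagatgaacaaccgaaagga
The Cd207 stretch holds 1 PU.1 core, read on the opposite strand, and 1 AP-1 match that ends 1 base before the start. The Zbtb46 stretch holds 1 AP-1 match, and its RefSeq start lies inside the gene as GENCODE annotates it. Of 9 of the 10 genes with a promoter in the table, 3 held an AP-1 match, Itgax being the third, 2 held a RUNX match (Itgax and Ly75) and 1 held a PU.1 match. Among all 32851 promoters of this length, 7.81% held TGANTCA, 16.8% TGTGGT and 28.3% GAGGAA. The matches are a description of these letters.

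Among the Langerhans cell genes, both had higher values with quinpirole and neither passed the test. Cd207 encodes langerin, the C-type lectin that forms Birbeck granules; on mm10 the gene spans chr6:83671215-83677857 on the minus strand. It measured 17.2, 29.6, 16.4, 21.7 and 19.1 CPM in quinpirole replicates 1 to 5, against 18.0, 13.1, 11.4, 13.3 and 24.3 CPM in vehicle replicates 1 to 5. All 5 quinpirole libraries lay above the vehicle median, and vehicle replicates 1 and 5 lay within the quinpirole range. The means were 20.8 ± 5.31 CPM with quinpirole and 16.0 ± 5.24 CPM with vehicle (SD, n = 5 each); the log2 fold change was 0.38, its SE 0.21 and its 95% interval from -0.081 to 0.83 (limma adjusted p = 0.525). Leaving out vehicle replicate 5 gave 0.53 (limma adjusted p = 0.217), leaving out quinpirole replicate 2 gave 0.25 (0.760), and with the hair shaft mean as a covariate it was 0.20 (0.699).

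Epcam encodes the epithelial cell adhesion molecule, which Langerhans cells share with epithelium of the hair follicle. It measured 220, 344, 270, 313 and 241 CPM in quinpirole replicates 1 to 5, against 184, 245, 211, 216 and 291 CPM in vehicle replicates 1 to 5. All 5 quinpirole libraries again lay above the vehicle median. The log2 fold change was 0.27 with SE 0.15 and a 95% interval from -0.048 to 0.59 (limma adjusted p = 0.506), and 0.15 with the hair shaft covariate (0.679). Per kilobase of annotated exon, Epcam stood at 127 ± 23.2 CPM with quinpirole and 104 ± 18.6 CPM with vehicle, and Cd207 at 13.7 ± 3.49 CPM with quinpirole and 10.5 ± 3.44 CPM with vehicle. Epcam RNA thus stood far above Cd207 RNA in both groups, and the 18 keratinocyte and follicle epithelium markers, of which 9 had higher and 9 lower values, summed to 24952 to 35713 CPM with quinpirole and 24238 to 31937 CPM with vehicle. How much of the Epcam level came from epithelium was not tested. The 3 libraries with the lowest hair shaft level were the 3 highest for Cd207 and, in another order, 3 highest for Epcam.

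The cDC1 genes had values on either side. Xcr1 encodes the receptor for the chemokine XCL1, through which cDC1 meet cytotoxic lymphocytes, and Clec9a encodes DNGR-1, a lectin that senses actin exposed by dead cells. Xcr1 measured 2.62, 3.06, 1.09, 2.80 and 3.23 CPM in quinpirole replicates 1 to 5, against 2.77, 1.42, 1.18, 1.98 and 2.94 CPM in vehicle replicates 1 to 5. Quinpirole replicate 3, at 8 reads, was the lowest of all 10 libraries, and the other 4 quinpirole libraries lay above the vehicle median. The log2 fold change was 0.22 (95% interval -0.30 to 0.73, limma adjusted p = 0.775), and 0.40 without quinpirole replicate 3 (0.551). Clec9a measured 0.714, 1.31, 1.23, 2.93 and 1.55 CPM in quinpirole replicates 1 to 5, against 2.26, 2.14, 0.917, 1.72 and 2.10 CPM in vehicle replicates 1 to 5. Quinpirole replicate 4 was the highest library and the other 4 quinpirole libraries lay below the vehicle median. Its log2 fold change was -0.18 (95% interval -0.69 to 0.32, limma adjusted p = 0.815), -0.35 without quinpirole replicate 4 (0.547) and -0.052 without quinpirole replicate 1 (0.945).

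Cd209a, which encodes a relative of human DC-SIGN and marks cDC2 and dendritic cells derived from monocytes, was the most variable of the 10 in vehicle skin, with a coefficient of variation of 62.8%. It measured 3.57, 8.16, 3.27, 9.16 and 5.42 CPM in quinpirole replicates 1 to 5, against 7.54, 1.42, 1.70, 5.02 and 6.71 CPM in vehicle replicates 1 to 5. Vehicle replicates 2 and 3 were the 2 lowest libraries, and quinpirole replicates 2 and 4 the 2 highest. The log2 fold change was 0.43 with SE 0.39 (95% interval -0.42 to 1.29, limma adjusted p = 0.725), 0.22 without vehicle replicate 3 (0.922) and 0.11 with the hair shaft covariate (0.944). Cd209a has close relatives in the same gene cluster, and reads that RSEM divided among them would make its level uncertain.

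Of the lineage genes, Flt3 had the smallest p of the 10. It encodes the receptor tyrosine kinase whose ligand sustains conventional dendritic cells and their precursors, while Langerhans cells develop without it; on mm10 it spans chr5:147330741-147400489 on the minus strand. Flt3 measured 1.43, 2.62, 2.32, 1.65 and 2.07 CPM in quinpirole replicates 1 to 5, against 4.15, 2.28, 1.44, 4.23 and 5.59 CPM in vehicle replicates 1 to 5. Vehicle replicates 1, 4 and 5 lay above all quinpirole libraries, and vehicle replicates 2 and 3 lay among them. Each of the 5 quinpirole libraries was below the vehicle median. The means were 2.02 ± 0.484 CPM with quinpirole and 3.54 ± 1.66 CPM with vehicle (SD, n = 5 each); the log2 fold change was -0.52, its SE 0.26 and its 95% interval from -1.08 to 0.044 (limma adjusted p = 0.476). EdgeR, which does not compress low values by a pseudocount of 1, gave -0.81 (edgeR adjusted p = 0.390). The value was -0.36 without vehicle replicate 5 (limma adjusted p = 0.519) and -0.69 with the hair shaft covariate (0.268). Flt3 rests on 76 reads over the quinpirole libraries and 132 over the vehicle libraries.

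Itgax encodes CD11c, an integrin of dendritic cells that many macrophages and some natural killer cells also carry, and Zbtb46 encodes a transcription factor of conventional dendritic cells, present in endothelium as well. Itgax measured 12.8, 10.6, 9.68, 9.03 and 12.0 CPM in quinpirole replicates 1 to 5, against 13.7, 7.83, 7.08, 18.6 and 13.8 CPM in vehicle replicates 1 to 5. All 5 quinpirole values lay inside the vehicle range and below the vehicle median. The log2 fold change of -0.089 (95% interval -0.59 to 0.41, limma adjusted p = 0.920) was 0.074 without vehicle replicate 4 and 0.026 with the skeletal muscle covariate. Zbtb46 measured 2.97, 4.08, 3.27, 3.43 and 2.97 CPM in quinpirole replicates 1 to 5, against 3.65, 1.85, 1.83, 2.77 and 4.05 CPM in vehicle replicates 1 to 5. All 5 quinpirole libraries lay above the vehicle median and within or just above the vehicle range, and the log2 fold change was 0.22 (95% interval -0.20 to 0.63, limma adjusted p = 0.712). For these lineage genes the quinpirole libraries were the less spread. The coefficient of variation for Itgax was 14.6% with quinpirole against 39.2% with vehicle. It was 24.0% with quinpirole against 47.0% with vehicle for Flt3, and 13.6% with quinpirole against 35.8% with vehicle for Zbtb46. The lineage genes were not alone in this, as it was also lower with quinpirole for Cd207, Xcr1, Cd209a, Ccr7 and Ly75. For Epcam it was 18.4% with quinpirole against 17.8% with vehicle, and for Clec9a 53.7% with quinpirole against 30.0% with vehicle. Zbtb46 had 23 to 28 reads per quinpirole library and Flt3 12 to 18, so their spread rests on few reads. Genes outside the 10 went both ways. The coefficient was lower with quinpirole for Itgae (9.35% against 32.2% with vehicle) and Cd14 (23.6% against 60.2%). It was higher with quinpirole for Gas6 (23.7% against 14.9% with vehicle) and Flt3l (35.4% against 17.2%). The share of all genes tested with a lower coefficient with quinpirole was not counted. The difference in spread was not tested.

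Ccr7 encodes the chemokine receptor that leads mature dendritic cells, Langerhans cells included, into lymph vessels, and naive T cells and B cells carry it too. It measured 0.714, 0.583, 1.499, 1.40 and 1.94 CPM in quinpirole replicates 1 to 5, against 2.64, 0.854, 0.786, 1.59 and 2.66 CPM in vehicle replicates 1 to 5. Vehicle replicates 1 and 5 were the 2 highest libraries and quinpirole replicates 1 and 2 the 2 lowest, and the remaining 6 interleaved. The log2 fold change was -0.25 with SE 0.26 (95% interval -0.82 to 0.32, limma adjusted p = 0.760), and it lay between -0.65 and -0.10 over 23 alternatives. For T cells, 10 markers summed to 32.2 to 68.0 CPM with quinpirole and 27.1 to 69.9 CPM with vehicle, and 8 of B cells to 8.59 to 13.7 CPM with quinpirole and 12.5 to 21.1 CPM with vehicle, of which Ms4a1, the gene of CD20, averaged 0.201 CPM with quinpirole and 0.268 CPM with vehicle; the part of these cells in the Ccr7 level was not tested. Ly75 encodes the endocytic receptor DEC-205 of cDC1, Langerhans cells and some epithelia. It measured 10.1, 8.59, 8.59, 12.8 and 8.14 CPM in quinpirole replicates 1 to 5, against 8.42, 8.26, 7.60, 7.13 and 13.3 CPM in vehicle replicates 1 to 5. Quinpirole replicate 4 and vehicle replicate 5 stood apart at the top, the other 8 libraries were close together, and the log2 fold change was 0.11 (95% interval -0.27 to 0.50, limma adjusted p = 0.847), or -0.14 with the skeletal muscle covariate.

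**Figure D2:**
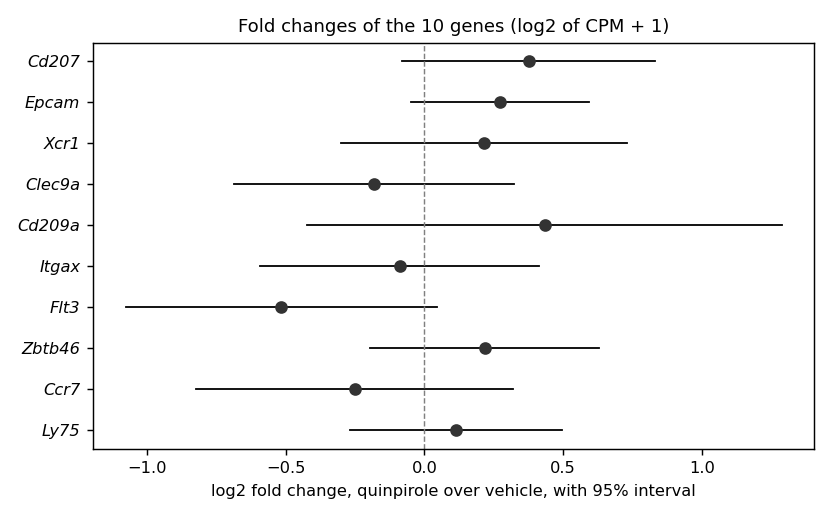
Log2 fold change (horizontal axis, quinpirole over vehicle, log2 of CPM plus 1) of the 10 genes as points with 95% intervals from limma. Every interval includes 0; Flt3 at -0.52 and Cd209a at 0.43 are the outermost points.

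Ordered by level per kilobase of annotated exon, Epcam stood first and Cd207 second in both groups, each apart from its neighbours by more than the spread. Next with quinpirole came Cd209a at 3.74 ± 1.68, Itgax at 2.26 ± 0.330 and Ly75 at 1.40 ± 0.280 CPM per kilobase, and with vehicle the same genes in the same order at 2.83 ± 1.78, 2.54 ± 0.996 and 1.29 ± 0.360. Cd209a and Itgax did not differ beyond their spread in either group. The last 5 genes, Ccr7, Xcr1, Clec9a, Zbtb46 and Flt3, averaged 0.327 to 0.620 CPM per kilobase with quinpirole and 0.333 to 0.862 with vehicle, within or close to each other's SD. Flt3 was the lowest of the 10 with quinpirole, at 0.327 ± 0.0784, and seventh with vehicle, at 0.573 ± 0.269 CPM per kilobase. The exon lengths join all annotated transcripts of a gene, so they overstate the length of the transcripts in use and understate these levels.

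Across libraries the genes did not vary as 1 block. Cd207 had Pearson's r of 0.88 with Zbtb46, 0.81 with Cd209a, 0.76 with Xcr1 and 0.72 with Epcam over the 10 libraries on log2 of CPM plus 1, and of 0.26 with Flt3, 0.25 with Clec9a, 0.22 with Itgax and 0.16 with Ccr7. Flt3 had an r of 0.70 with Ccr7 and 0.67 with Itgax. These values are a description over libraries that share depth and tissue content. Vehicle replicate 3 was below the median of the 10 libraries for all 10 genes and vehicle replicate 5 above it for all 10, so both extremes were in the vehicle group. In quinpirole replicates 2 and 4, 7 of the 10 genes were above that median, and Ccr7, in replicate 2, was at its lowest.

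**Figure D3:**
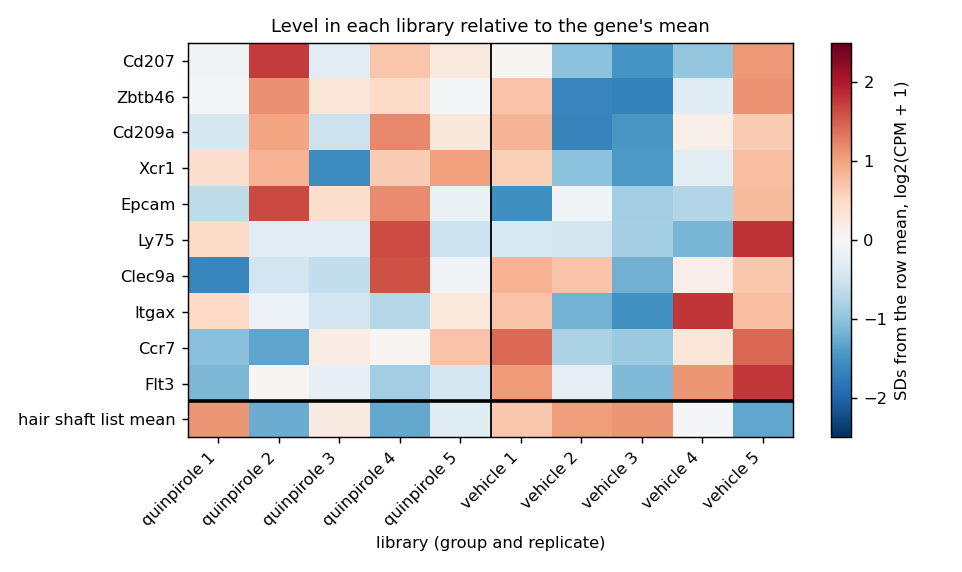
Level of each gene in each library (columns, quinpirole left of vehicle) as SDs from that gene's mean on log2 of CPM plus 1, red above and blue below, with the mean of 27 hair shaft genes in the bottom row on the same scale. Vehicle replicate 3 is blue and vehicle replicate 5 red for all 10 genes, and quinpirole replicate 2 is red for Cd207, Zbtb46, Cd209a, Xcr1 and Epcam.

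The genes closest to Cd207 among all 14547 others tested were Hepacam2 and Psapl1. Hepacam2, an adhesion molecule of the immunoglobulin family, had r = 0.95 and rho (Spearman's) = 0.93 (permutation p = 1.40e-04 for r and 3.60e-04 for rho), with r = 0.90 without the 2 libraries farthest from the Cd207 median, and averaged 1.63 ± 0.679 CPM with quinpirole and 1.04 ± 0.770 CPM with vehicle. Psapl1, a relative of prosaposin, had r = 0.94 (permutation p = 1.60e-04) and rho = 0.98 (permutation p = 4.00e-05), and r = 0.88 without those 2 libraries. Closest to Flt3 were Ccr9, a chemokine receptor of plasmacytoid dendritic cells and gut-homing T cells (r = 0.96, permutation p = 1e-04; rho = 0.94, permutation p = 1.80e-04; r = 0.96 without 2 libraries), and Ace, the angiotensin-converting enzyme (r = 0.93, permutation p = 1e-04; rho = 0.92, permutation p = 4.60e-04; r = 0.91 without 2 libraries). Each is the top of 14547 relations, and its p takes no account of that choice.

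The ligands of the receptors above were next compared. Ccl19, made by stromal cells and mature dendritic cells and 1 of the 2 ligands of CCR7, had the smallest p of the growth factors and ligands listed. It measured 10.6, 9.61, 5.86, 13.0 and 8.27 CPM in quinpirole replicates 1 to 5, against 5.66, 1.99, 2.62, 3.83 and 2.38 CPM in vehicle replicates 1 to 5. The groups did not overlap, with quinpirole replicate 3 and vehicle replicate 1 nearest to each other. The means were 9.46 ± 2.65 CPM with quinpirole and 3.30 ± 1.49 CPM with vehicle (SD, n = 5 each); the log2 fold change of 1.31, with SE 0.24, did not pass the threshold (limma adjusted p = 0.119). Over 24 alternatives it lay between 0.80 and 1.55 with adjusted p from 5.59e-04 to 0.315, and it was called in 2 of them, by DESeq2 (adjusted p = 5.59e-04) and by limma with Ptprc as a covariate (adjusted p = 0.0219), but not by edgeR (adjusted p = 0.135). DESeq2 called 216 genes in all.

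Ccl21a, the ligand made by lymphatic endothelium, measured 65.2, 115, 45.3, 94.5 and 79.4 CPM in quinpirole replicates 1 to 5, against 62.0, 14.4, 17.8, 67.2 and 45.2 CPM in vehicle replicates 1 to 5. The groups overlapped, and the log2 fold change was 1.11 with SE 0.42 (limma adjusted p = 0.336). Mouse Ccl21a has near-identical gene copies, so its level is uncertain where reads were divided. Flt3l, the FLT3 ligand, measured 3.33, 5.97, 3.82, 4.07 and 2.20 CPM in quinpirole replicates 1 to 5, against 3.52, 3.99, 3.14, 2.51 and 3.78 CPM in vehicle replicates 1 to 5, and its log2 fold change of 0.12 by limma (adjusted p = 0.864) was -0.022 without quinpirole replicate 2. Xcl1, the ligand of XCR1, was below the filter at 0.912 ± 0.719 CPM with quinpirole and 0.302 ± 0.192 CPM with vehicle (SD, n = 5 each; exact two-sided permutation p = 0.103). Csf1, a growth factor of macrophages and Langerhans cells, averaged 53.0 ± 11.8 CPM with quinpirole and 35.4 ± 7.90 CPM with vehicle (log2 fold change 0.57, limma adjusted p = 0.259), and Gas6, a ligand of the receptor AXL, 130 ± 30.8 CPM with quinpirole and 93.9 ± 14.0 CPM with vehicle (0.45, 0.307). Of 11 ligands and growth factors tested, 7 had higher and 4 lower values, 0 were called by limma and 4 had an unadjusted p under 0.05, all 4 higher. Over all genes tested, 11.4% had an unadjusted p under 0.05, with 1006 higher and 651 lower.

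**Figure D4:**
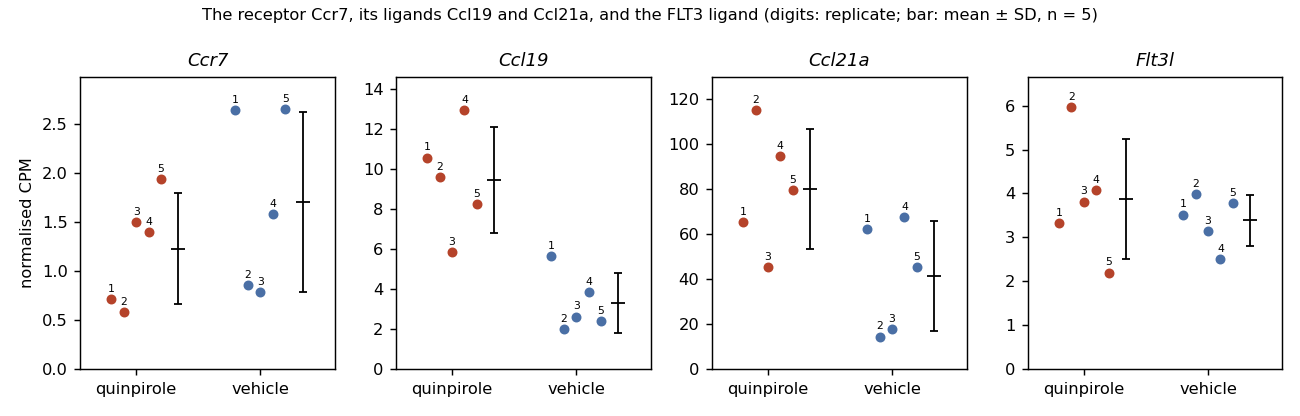
Normalised CPM (vertical axes, from 0) of Ccr7, its ligands Ccl19 and Ccl21a, and the FLT3 ligand gene in each quinpirole and vehicle library, with replicate numbers and mean ± SD. All 5 quinpirole libraries lie above all 5 vehicle libraries for Ccl19, and the groups overlap in the other 3 panels.

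The 7 further lists of dendritic cell genes, the ligands included, held 87 tested genes. Limma called 0 of them, with 15 at an unadjusted p under 0.05, edgeR called 0, and DESeq2 called 1, Ccl19. DESeq2 called 216 of all genes tested. By limma, 11.4% of all genes tested had an unadjusted p under 0.05, 1006 of them higher and 651 lower. Genes were counted as higher or lower by the sign of the log2 fold change. Of all genes tested, 7215 were higher and 7333 lower. Of 12 other cDC2 genes tested, 8 had higher values, 5 had an unadjusted p under 0.05 (4 higher, 1 lower) and the median log2 fold change was 0.031. The groups did not overlap for 1 of the 12, Notch2, beside 2.2% of all genes tested. It was lower, at 333 ± 12.0 CPM with quinpirole and 364 ± 17.4 CPM with vehicle (log2 fold change -0.13, limma adjusted p = 0.543). Mgl2, the CD301b lectin of dermal cDC2 and of some macrophages, averaged 7.85 ± 1.74 CPM with quinpirole and 4.08 ± 2.27 CPM with vehicle (log2 fold change 0.89, limma adjusted p = 0.250). Cd209d, a relative of Cd209a that macrophages express, averaged 19.9 ± 4.44 CPM with quinpirole and 9.99 ± 4.95 CPM with vehicle (1.05, 0.269), and Esam, an adhesion molecule of cDC2 and endothelium, 8.80 ± 1.52 CPM with quinpirole and 13.8 ± 4.31 CPM with vehicle (-0.55, 0.341). Macrophage and monocyte markers were not called either: 13 of 16 had higher values with quinpirole, with a median of 0.29, and their sum was 1648 to 2182 CPM with quinpirole and 932 to 1916 CPM with vehicle. The 3 with lower values were Mertk (-0.69, 0.237), Cd14 (-0.58, 0.500) and Adgre1 (-0.067, 0.924). Mertk had the smallest p of these markers, and its groups did not overlap. The part of macrophages in the cDC2 values was not tested.

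Of 12 other cDC1 genes, 7 had higher and 5 lower values, 0 had an unadjusted p under 0.05, and the median was 0.035. The integrin gene Itgae (CD103), which resident T cells share with cDC1, averaged 13.0 ± 1.21 CPM with quinpirole and 18.1 ± 5.83 CPM with vehicle (log2 fold change -0.39, limma adjusted p = 0.478). Batf3, a factor needed for cDC1 to develop, averaged 0.950 ± 0.326 CPM with quinpirole and 1.55 ± 0.679 CPM with vehicle (-0.36, 0.543), and the hydrolase Naaa 63.9 ± 7.26 CPM with quinpirole and 56.1 ± 8.84 CPM with vehicle (0.19, 0.578). Of 22 maturation genes 20 were tested, of which 11 had higher and 9 lower values, with a median of 0.011. The smallest p of the 20 belonged to Cd83, a surface protein of mature dendritic cells. It averaged 3.60 ± 0.544 CPM with quinpirole and 5.45 ± 1.75 CPM with vehicle (-0.46, 0.349). Traf1, a signalling adaptor, stood at -0.45 (0.493) and Icosl, a costimulatory ligand, 0.24 (0.521). Il12b, below the filter, averaged 0.642 CPM with quinpirole and 1.97 CPM with vehicle (exact two-sided permutation p = 0.0238, unadjusted). Its groups overlapped, with 4 quinpirole libraries below all vehicle libraries, and it rests on 2 to 38 reads per library. Ccl17, also below the filter, averaged 0.887 CPM with quinpirole and 0.452 CPM with vehicle (exact two-sided permutation p = 0.0714, unadjusted).

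Of 13 receptors and factors of Langerhans cells, 7 had higher and 6 lower values, with a median of 0.0043. Ahr, the aryl hydrocarbon receptor, averaged 88.4 ± 15.2 CPM with quinpirole and 65.3 ± 13.3 CPM with vehicle (log2 fold change 0.44, limma adjusted p = 0.293), and Tgfbr2, a subunit of the TGF-β receptor, 210 ± 34.5 CPM with quinpirole and 159 ± 33.9 CPM with vehicle (0.42, 0.332). Axl, a receptor that dampens inflammation, averaged 153 ± 5.83 CPM with quinpirole and 130 ± 12.2 CPM with vehicle (0.23, 0.301) in groups that did not overlap. All of these are also expressed by other skin cells. Of 10 plasmacytoid dendritic cell genes tested, 7 had higher and 3 lower values, with a median of 0.098. Siglech, the lectin that marks these cells in mice, averaged 2.37 ± 0.938 CPM with quinpirole and 1.31 ± 0.339 CPM with vehicle (0.51, 0.385). It rests on 7 to 26 reads per library. The 3 with lower values were the factor Runx2 (-0.28, 0.505), Ccr9 (-0.25, 0.541) and Tlr9 (-0.36, 0.679). Below the filter, Pacsin1 averaged 0.128 CPM with quinpirole and 0.428 CPM with vehicle (exact two-sided permutation p = 0.0159, unadjusted). Spib, also below it, averaged 0.335 CPM with quinpirole and 0.267 CPM with vehicle (exact two-sided permutation p = 0.690). Cox6a2, a subunit of cytochrome oxidase that plasmacytoid cells share with striated muscle, averaged 30.1 ± 35.3 CPM with quinpirole and 7.44 ± 2.90 CPM with vehicle (1.43, 0.286), beside skeletal muscle genes of which 20 of 20 had higher values. Quinpirole replicate 4 measured 93.0 CPM of Cox6a2, against 10.5 to 17.6 CPM in the other quinpirole libraries. That library also had the highest summed skeletal muscle level, 17243 CPM.

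Of 11 MHC class II genes, which all of these cells use to present peptides, 9 had a log2 fold change above 0. The median was 0.086, and 0 had an unadjusted p under 0.05. H2-Eb1 counted among the 9 at 0.053, although it averaged 141 CPM with quinpirole and 144 CPM with vehicle. The smallest p were those of the peptide-loading chaperones: H2-DMa stood at 0.37 on the log2 scale (limma adjusted p = 0.638), H2-DMb2 0.21 (0.681) and H2-DMb1 0.24 (0.728). The summed level of the 11 genes was 771 to 1279 CPM with quinpirole, with a median of 930. With vehicle it was 554 to 1409 CPM, with a median of 1089, and the lowest and the highest library were both in the vehicle group.

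**Figure D5:**
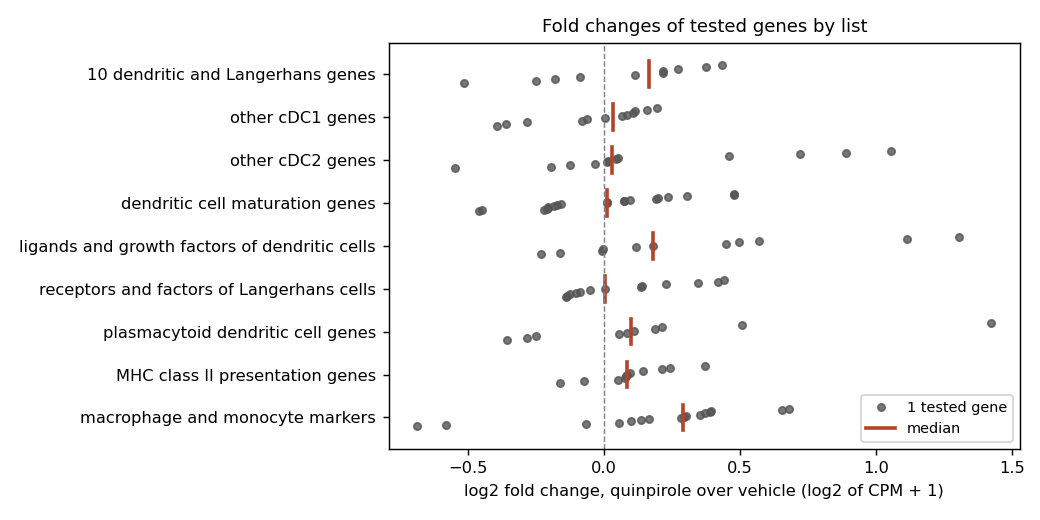
Log2 fold change (horizontal axis, quinpirole over vehicle) of each tested gene as a point and the median of each list as a bar, for the 10 genes and for 8 further lists. The medians lie between 0.0043 for the receptors and factors of Langerhans cells and 0.29 for macrophage and monocyte markers, and Ccl19 at 1.31 and Cox6a2 at 1.43 are the outermost points.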

How the data were processed

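Total RNA of whole skin was depleted of ribosomal RNA and made into directional libraries, per the labels' protocols. Tools in the submitters' processing notes are edgeR, RSEM 1.3.0, Bowtie2 and Trimmomatic 0.38, and the build is mm10, without stated roles; annotation and filter are not given there. The authors' deposited table holds a normalised signal per gene. Dividing each column by its smallest value gave whole numbers for 100% of values, within 1e-05 of a read, and these were used as recovered reads; the scale equals CPM on edgeR TMM library sizes, within 2.22e-16 of each factor.

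Values were used as deposited, as log2 of CPM plus 1. A gene was tested at 1 CPM or more in at least 5 libraries. The test was limma 3.58.1 in R 4.3.3 (two-sided) with a mean-variance trend and no covariate, Benjamini-Hochberg adjusted over 14548 genes and called at 0.05. Genes below the filter got an exact permutation test. The steps were checked on simulated data. edgeR 4.0.16 and DESeq2 1.42.0 were run on recovered reads; other alternatives changed pseudocount, filter, scaling, variance model and covariates, or left out each library. No library repeated another of its group (chi-square per gene 6.22 or more, about 1 for sampling noise). The genes, lists and tests were chosen with earlier results of these data known. Named by a rule were the 10 genes, their ligands, Ptprc, the 3 genes of smallest p in each dendritic cell list and the 2 closest to Cd207 and to Flt3. Other genes were named after their values were seen. These were Ms4a1, Mertk, Cd14, Adgre1, H2-Eb1, Notch2, Tlr9, Il12b, Ccl17, Pacsin1 and Spib. Positions are GENCODE M21. Figures used matplotlib 3.10.9.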

Additional observations from a re-analysis of the deposited data

Results flagged for a closer look

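Xcr1 in quinpirole replicate 3, at 1.09 CPM, stood far below the other 4 quinpirole libraries, at 2.62 to 3.23 CPM. Ly75 in vehicle replicate 5, at 13.3 CPM, stood far above the other 4 vehicle libraries, at 7.13 to 8.42 CPM. Chance marks about 1 in 20 groups in this way, and 20 groups were examined.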

How the results depend on the processing

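None of the 10 genes was called in any of the 24 alternatives, and 8 of them kept their sign in all that could test them; with 1 CPM required in all 10 libraries, Ccr7 and Clec9a were not tested. The median of the 10 lay between 0.036 and 0.28. The sign turned for Itgax (0.026 with the skeletal muscle covariate, 0.074 without vehicle replicate 4, and from -0.25 to 0.074 when single libraries were left out), Ly75 (-0.14 with the skeletal muscle covariate) and Flt3l (-0.022 without quinpirole replicate 2, the range being up to 0.26). That of Ptprc turned with library weights (-0.14), edgeR (-0.024), DESeq2 (-0.023), the hair shaft (-0.11) or skeletal muscle (-0.17) covariate and without quinpirole replicates 4 or 5 or vehicle replicates 2 or 3 (from -0.17; up to 0.15 without another library); the cause was not tested.

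The count of genes called, 3 of 14548, was 5 with a pseudocount of 0.1, with 1 CPM required in all 10 libraries or with scaling to total reads, 6 with no filter, 9 without the trend, 21 with library weights, 1 by edgeR, 216 by DESeq2, 14 with the hair shaft and 31 with the Ptprc covariate. Limma called 0 with the skeletal muscle covariate (1208 at an unadjusted p under 0.05). Leaving out single libraries gave 0 to 10: 0 without vehicle replicates 1, 2 or 4 or any quinpirole replicate (1319 to 2012 unadjusted), 1 without vehicle replicate 3 and 10 without vehicle replicate 5. With the replicate number as a block 0 were called (1576 unadjusted); same-numbered libraries deviated together with correlations of -0.24 to 0.22, so the numbers were not taken to pair samples. Depth limits Ccr7, Clec9a and Xcr1 most, at 4 to 25 reads per library.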

Other observations

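The ratio of Cd207 to Flt3, chosen after the values were seen and so not tested, was 12.1, 11.3, 7.06, 13.2 and 9.25 in quinpirole replicates 1 to 5, against 4.33, 5.75, 7.91, 3.16 and 4.35 in vehicle replicates 1 to 5. Quinpirole replicate 3 and vehicle replicate 3 are the only libraries at which the groups overlap. Relative to 100 CPM of Ptprc, Cd207 stood at 13.9 to 27.3 CPM with quinpirole and 8.20 to 21.2 CPM with vehicle, and Flt3 at 1.05 to 2.93 CPM with quinpirole and 1.53 to 4.88 CPM with vehicle.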
